A study of Homo sapiens with 32 samples.

Results

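The 40 genes described here act in homologous recombination and in the Fanconi anaemia pathway of DNA repair. They were chosen by name, as the rows of the deposited count tables whose symbol is on a list of 40, and all 40 were tested in at least 1 of 8 comparisons, beside 24109 genes in all. They form 8 groups by role: 6 genes of end choice and BRCA mediation, 9 recombinase paralogs and partners, 8 genes of the Fanconi core, the FANCD2 and FANCI pair, 4 genes of the dissolution complex, 4 nuclease genes, 3 genes of the break sensor complex and 4 checkpoint kinases. Of the 40, 39 were tested in all 8 comparisons, because DMC1 had almost no counts in LNCaP and PC3.

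RNA was sequenced from 4 human prostate cancer lines in 32 libraries, which make 16 groups with 2 replicates each. LNCaP is an androgen-sensitive line from a lymph node metastasis, C4-2 was derived from LNCaP, 22Rv1 came from a relapsed xenograft, and PC3 came from a bone metastasis and has lost androgen receptor signalling. In the knockdown experiment each line was infected with a scramble shRNA or with shCSN5, an shRNA against CSN5. CSN5 is the protease of the COP9 signalosome and takes NEDD8 off cullin ubiquitin ligases. In the inhibitor experiment cells had DMSO or CSN5i-3, an inhibitor of CSN5, with a dose of 5 µM for LNCaP and 22Rv1 cells and 10 µM for PC3 cells. No group carries another treatment in the labels, and the time of treatment is not given in the sources used here. In C4-2 the titles and descriptions of the inhibitor libraries contradict each other. Those with C5i in the title carry a DMSO description, and those with NT in the title carry CSN5i-3 at 1 µM, so they are given below only as titled C5i minus titled NT. One label of PC3 shCSN5 replicate 2 mentions drug treatment while the others say shCSN5, and it was kept as shCSN5.

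Homologous recombination repairs double-strand breaks by copying the sister chromatid. MRE11A, RAD50, NBN, RBBP8 and EXO1 cut back the broken end, and BRCA1, PALB2 and BRCA2 load the recombinase. BLM with its partners, and the MUS81 nuclease with the scaffold SLX4, resolve the joints. The Fanconi core complex adds ubiquitin to FANCD2 and FANCI at DNA crosslinks and hands them to the same machinery. Cells make most of these proteins when they replicate DNA, and loss of BRCA2 or ATM is a known target for PARP inhibitors in prostate cancer.

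Library totals, in M (mega) counts, ran from 20.6 M to 32.5 M in the knockdown experiment and from 29.5 M to 50.9 M in the inhibitor experiment. COPS5, which encodes CSN5, fell with shCSN5 in each line, with log2 fold changes (± SE) of -4.50 ± 0.26 in LNCaP, -3.56 ± 0.12 in C4-2, -2.68 ± 0.11 in 22Rv1 and -3.18 ± 0.12 in PC3. With CSN5i-3 it was not called in LNCaP (0.11 ± 0.087) or 22Rv1 (0.16 ± 0.15) and rose in PC3 (0.48 ± 0.033). All 8 luminal prostate markers reached 1 CPM in LNCaP, C4-2 and 22Rv1 in both experiments, and 4 of 8 did in PC3, where KLK2 and KLK3 were below 0.1 CPM. The summed level of these 8 also moved with treatment: with CSN5i-3 it went from 5574.5 and 5669 to 1476 and 1477 CPM in LNCaP, from 1925 and 1850.1 to 1328 and 1264 CPM in 22Rv1 and from 422 and 430.01 to 119.9 and 124 CPM in PC3. In C4-2 it stood at 5386 and 5392 CPM in the pair titled NT and at 1389 and 1387 CPM in the pair titled C5i. With shCSN5 it was lower in both treated libraries of each line. The summed mesenchymal genes of PC3-type cells went from 7.12 and 7.44 to 26.7 and 26.2 CPM with shCSN5 in LNCaP. VIM made most of it, at a mean of 24.1 CPM with shCSN5. With CSN5i-3 the LNCaP sum, over the 2 of 5 genes listed there, went from 3.13 and 3.51 to 22.8 and 22.2 CPM. With shCSN5 the sum also rose in 22Rv1, from 118.6 and 130.3 to 202.7 and 207.9 CPM. It fell in PC3, from 3259 and 3281 to 2421 and 2398 CPM, and in C4-2, from 15.7 and 16.8 to 14.3 and 15.4 CPM. The part of these shifts in the members' values was not tested. No more than 1 of 5 leukocyte markers reached 1 CPM in any group, and the highest level among them was 8.22 CPM, of LYZ in the C4-2 pair titled NT. The 2 replicates of a group differed by more than counting alone gives, with a chi-square per gene between 1.70 (PC3 DMSO) and 65.3 (LNCaP shCSN5), so no pair is 1 library given 2 times. The labels do not say whether replicates came from different cultures, and the p-values therefore measure the spread between these libraries, which may be technical. No library is shared by 2 of the 8 comparisons.

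The repair genes fell together with shCSN5 in LNCaP, C4-2 and 22Rv1 and not in PC3. Levels are CPM, counts per M of the scaled library total, and changes are log2 fold changes ± SE, treated minus control, with n = 2 libraries a group. A gene is called at a Benjamini-Hochberg adjusted p under 0.05 in edgeR's quasi-likelihood test over all genes. With shCSN5 in LNCaP 31 of 39 members tested were lower and 1 higher, with a median of -1.98, where 17.4% of all genes were called lower and 18.3% higher. In C4-2 32 of 40 were lower and 0 higher (median -1.12, background 16.2% lower and 15.7% higher). In 22Rv1 34 were lower and 1 higher (median -0.76, background 21.3% lower and 22.6% higher). In PC3 1 of 39 was lower and 3 were higher (median 0.11, background 6.41% lower and 10.3% higher). The median of all genes tested lay within 0.04 of 0 in each of these.

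With CSN5i-3 most of the repair genes fell in LNCaP, 22Rv1 and PC3. In LNCaP 32 of 39 were lower and 4 higher (median -1.46, background 26.5% lower and 26.2% higher). In 22Rv1 34 of 40 were lower and 0 higher (median -1.43, background 12.2% lower and 11.8% higher). In PC3 at 10 µM 25 of 39 were lower and 10 higher (median -0.47), where 38.5% of all genes were called lower and 38.5% higher, so the share of members higher was below the background and the share lower above it. For the pair titled C5i in C4-2 34 of 40 were lower and 1 higher (median -2.18, background 37.9% lower and 37.0% higher). Counts of comparisons below are over the 7 with clear labels, since the C4-2 pair would turn from lower to higher if its descriptions are right. FANCD2 was the only member lower in all 7, with a PC3 shCSN5 call that was lost with total-count scaling and without either shCSN5 library. A further 22 members were lower in exactly 6, each of them in all but PC3 shCSN5. The share of all genes lower in 6 or in all 7 was not counted. With shCSN5 the treated libraries lay below both controls for 39 of 40 members in 22Rv1, 35 in LNCaP and 33 in C4-2. In PC3 they lay below for 7, above for 17 and overlapped for 16. The same split over all genes was not counted, so these numbers have no background. The heatmap of log2 fold changes shows most members lower in each column but PC3 shCSN5, with the C4-2 pair as titled. The PC3 CSN5i-3 column is mixed, with 25 members called lower and 10 higher.

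**Figure D1:**
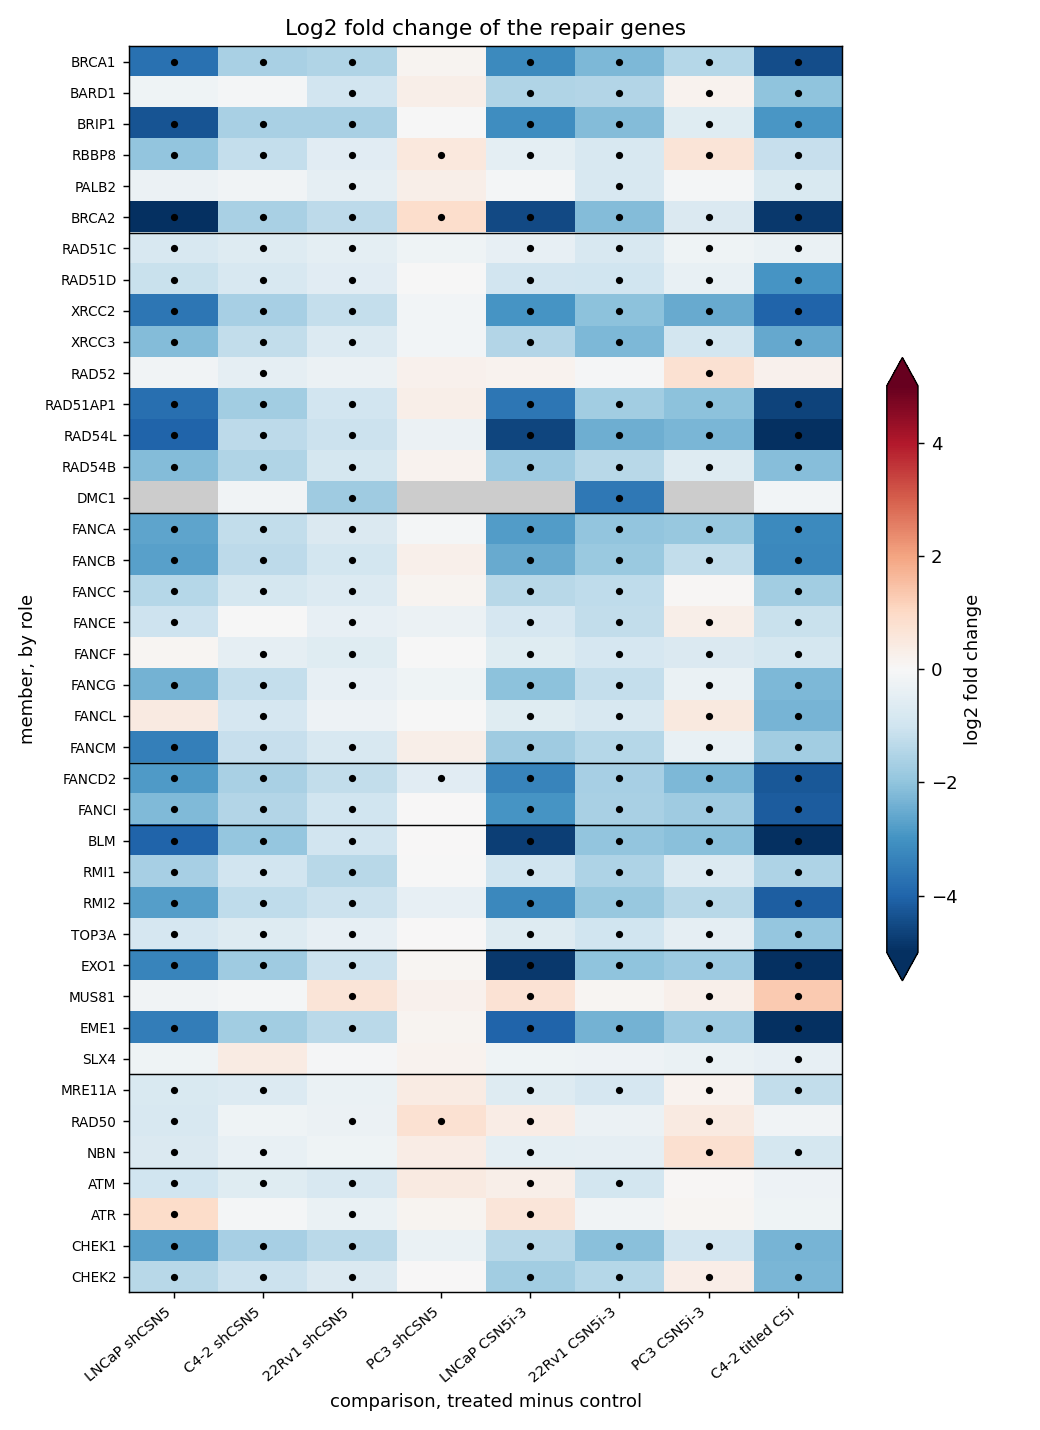
Log2 fold change of each member (rows, by role, with lines between roles) in the 8 comparisons (columns, treated minus control). Blue is lower and red higher with colour capped at 5, a dot marks a call at adjusted p under 0.05, and grey was not tested. The PC3 shCSN5 column holds 4 dots, 1 of them on a lower member, and the other columns hold 32 to 36.

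The promoters of 4 genes are shown to compare the members that moved most with one that moved least. EXO1, BLM and BRCA2 had the largest mean size of change over all 8 comparisons among the members lower in at least 5, the C4-2 pair taken as titled. The change of EXO1 was largest in that pair (-8.20), and the choice of genes may differ without the pair. SLX4 was called in 1 of the 7 with clear labels. Each sequence runs from 150 bases before to 30 bases after the gene's start in RefSeq on GRCh38.p14, read along the gene's strand, and capitals mark matches to an E2F-type motif.

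EXO1, chr1:241848054-241848233, plus strand: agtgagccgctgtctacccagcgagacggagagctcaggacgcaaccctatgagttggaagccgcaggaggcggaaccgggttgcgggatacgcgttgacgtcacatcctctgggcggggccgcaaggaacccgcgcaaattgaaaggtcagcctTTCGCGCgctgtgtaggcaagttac
BLM, chr15:90717196-90717375, plus strand: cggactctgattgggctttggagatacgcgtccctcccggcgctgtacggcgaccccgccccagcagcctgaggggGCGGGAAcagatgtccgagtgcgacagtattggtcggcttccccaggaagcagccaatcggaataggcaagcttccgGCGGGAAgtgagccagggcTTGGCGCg
BRCA2, chr13:32315358-32315537, plus strand: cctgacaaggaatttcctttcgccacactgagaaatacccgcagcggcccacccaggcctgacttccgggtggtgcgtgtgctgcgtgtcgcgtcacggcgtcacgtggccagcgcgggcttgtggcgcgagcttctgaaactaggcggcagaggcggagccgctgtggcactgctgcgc
SLX4, chr16:3611577-3611756, minus strand: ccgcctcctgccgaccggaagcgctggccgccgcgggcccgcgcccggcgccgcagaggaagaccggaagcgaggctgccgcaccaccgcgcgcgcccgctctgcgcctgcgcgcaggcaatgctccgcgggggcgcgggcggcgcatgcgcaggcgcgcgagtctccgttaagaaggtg

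The E2F-type motif was searched as TTGGCGC and its variants TTCCCGC and TTGCCGC and TTCGCGC, on both strands, over the 300 bases from 250 before to 50 after each start. E2F factors switch on many genes at the start of DNA replication. EXO1 holds 1 match, which begins at base 6 after the start, and BLM holds 3, while BRCA2 and SLX4 hold none in this window. RefSeq promoters were found for 36 of the 40 members, and those of RAD54B, FANCI, RMI2 and NBN were not used. A match was present in 20 of the 36 (55.6%), against 13.1% of 27305 promoters and 19.5% of the 13083 promoters of genes tested here. It was present in 13 of the 20 members lower in at least 6 of 7 comparisons (65%) and in 7 of the 16 others (43.8%). The CHR motif of genes expressed in mitosis (TTTGAA or TTCGAA) was present in 3 of 36 (8.33%) against 16.6% of all promoters and 11.7% of those of genes tested, and CCAAT, which lies in many promoters, in 15 of 36 (41.7%) against 35.7% and 36.6%. These letters and this split of the members were chosen after the calls were known, and the shares are a description without a test.

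BRCA1, BRIP1 and BRCA2 fell furthest of the genes of end choice and BRCA mediation. BRCA1, which steers breaks to recombination, stood at 44.3 and 45.6 CPM in LNCaP scramble and at 3.81 and 2.98 CPM with shCSN5 (-3.73 ± 0.20, adjusted p = 0.00019). In 22Rv1 it went from 222 and 235 to 77.4 and 83.7 CPM (-1.50 ± 0.080). In C4-2 it went from 129.8 and 117 to 38.2 and 41.1 CPM (-1.64 ± 0.11). The treated libraries lay below both controls in each of these lines, and in PC3 they overlapped, with 68.2 and 58.1 CPM in scramble and 71.8 and 66.3 CPM with shCSN5 (0.13 ± 0.12). With CSN5i-3 BRCA1 fell by 3.19 ± 0.12 in LNCaP, 2.26 ± 0.15 in 22Rv1 and 1.44 ± 0.10 in PC3.

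BRCA2, which loads the recombinase onto single-stranded DNA, had the lowest change of any member with shCSN5 in LNCaP, from 13.4 and 14.5 to 0.220 and 0.287 CPM (-5.76 ± 0.25). It went from 119 and 105 to 36.2 and 37.2 CPM in C4-2 (-1.61 ± 0.11) and from 49.6 and 53.7 to 21.6 and 20.2 CPM in 22Rv1 (-1.31 ± 0.10). In PC3 it moved the other way, from 16.95 and 14.8 to 32.1 and 25.6 CPM (0.86 ± 0.17, adjusted p = 0.028), with both treated libraries above both controls. That call was lost without PC3 shCSN5 replicate 1 (adjusted p = 0.145). With CSN5i-3 it was lower in PC3 as well, from 3.32 and 3.20 to 2.05 and 1.87 CPM (-0.73 ± 0.16), and fell from 8.16 and 6.94 to 0.392 and 0.261 CPM in LNCaP (-4.53 ± 0.22).

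BRIP1, a helicase partner of BRCA1, went from 14.8 and 15.9 to 0.660 and 0.860 CPM with shCSN5 in LNCaP (-4.32 ± 0.22) and from 73.2 and 79.2 to 23.4 and 26.4 CPM in 22Rv1 (-1.61 ± 0.10). BARD1, the partner that stabilises BRCA1, did not follow it. In LNCaP BARD1 stood at 80.3 and 84.2 CPM in scramble and at 80.3 and 62.6 CPM with shCSN5 (-0.20 ± 0.16, not called, but called lower without LNCaP shCSN5 replicate 1), and in C4-2 its libraries overlapped as well (-0.11 ± 0.12, not called). BARD1 fell in 22Rv1 (-0.97 ± 0.10) and with CSN5i-3 in LNCaP, from 90.3 and 81.8 to 29.8 and 30.4 CPM (-1.51 ± 0.081), and in 22Rv1 (-1.45 ± 0.20). In PC3 with CSN5i-3 it was called higher by 0.19 ± 0.085, a call lost in DESeq2 (adjusted p = 0.189) and without PC3 CSN5i-3 replicate 1 (0.0628) or 2 (0.105) or PC3 DMSO replicate 2 (0.342). PALB2, which bridges BRCA1 and BRCA2, was called in 2 of 7 comparisons, both lower and both in 22Rv1, at -0.47 with shCSN5 and -0.82 with CSN5i-3.

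RBBP8, also called CtIP, which starts resection of the broken end, changed in opposite directions. With shCSN5 it fell in LNCaP from 19.2 and 19.9 to 5.68 and 4.19 CPM (-1.98 ± 0.20). It also fell with shCSN5 in C4-2 (-1.20 ± 0.14) and in 22Rv1 (-0.56 ± 0.086). With CSN5i-3 it fell 1.40-fold in LNCaP. In 22Rv1 it fell 1.74-fold with CSN5i-3. The 22Rv1 inhibitor call for RBBP8 was lost with the replicate number as a block (adjusted p = 0.0721) and without 22Rv1 DMSO replicate 1. In PC3 RBBP8 was higher with shCSN5, from 76.8 and 65.3 to 107 and 100.1 CPM (0.54 ± 0.12, adjusted p = 0.037). With CSN5i-3 in PC3 it was also higher, from 27.6 and 27.2 to 44.2 and 42.1 CPM (0.66 ± 0.047). The knockdown call was lost without PC3 shCSN5 replicate 1 (adjusted p = 0.219), without replicate 2 (0.110), without PC3 scramble replicate 2 (0.0519) and with a spread shared over the lines (0.0654).

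RAD54L and RAD51AP1 fell furthest of the recombinase paralogs and partners tested in LNCaP, with shCSN5 and with CSN5i-3. RAD54L, a motor that remodels DNA during strand exchange, stood at 55.6 and 53.9 CPM in LNCaP scramble and at 3.45 and 3.44 CPM with shCSN5 (-3.99 ± 0.17), and at 20.03 and 20.7 CPM in DMSO and 0.758 and 0.90 CPM with CSN5i-3 (-4.61 ± 0.13). In 22Rv1 it went from 35.3 and 38.04 to 7.10 and 6.41 CPM with CSN5i-3 (-2.44 ± 0.19), and in PC3 from 12.3 and 14.3 to 2.72 and 2.81 CPM (-2.27 ± 0.10). With shCSN5 in PC3 it stood at 49.3 and 54.8 CPM against 42.4 and 43.4 CPM, groups that did not overlap but were not called (-0.28 ± 0.11, adjusted p = 0.147). With the replicate number as a block it was called lower there (adjusted p = 0.0047), although the numbers mark no shared batch in the labels. RAD51AP1, which aids strand pairing, fell with shCSN5 in LNCaP from 13.6 and 12.8 to 0.843 and 1.08 CPM (-3.78 ± 0.22), and in PC3 with CSN5i-3 from 6.92 and 8.72 to 2.01 and 1.75 CPM (-2.04 ± 0.13).

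XRCC2, a paralog of the recombinase, fell from 12.52 and 13.4 to 1.03 and 1.11 CPM with shCSN5 in LNCaP (-3.60 ± 0.20) and from 14.5 and 14.8 to 2.38 and 2.79 CPM with CSN5i-3 in PC3 (-2.51 ± 0.10). The paralogs RAD51C, RAD51D and XRCC3 and the motor RAD54B were called lower in 6 of 7 comparisons each. RAD51C lay between -0.80 and -0.23 in those 6. XRCC3 differed between replicates of a group, with 16.1 and 27.6 CPM in PC3 scramble. RAD52, an annealing factor, was called in 2 comparisons, in opposite directions, at -0.46 ± 0.15 with shCSN5 in C4-2 and at 0.76 ± 0.085 with CSN5i-3 in PC3, where it went from 6.60 and 6.81 to 11.1 and 11.5 CPM. DMC1, the meiotic recombinase, was under 1 CPM in each C4-2 library and was not called there, at -0.18 ± 0.37 with shCSN5. In 22Rv1 it fell with shCSN5 from 10.4 and 12.1 to 3.06 and 3.43 CPM (-1.79 ± 0.17) and with CSN5i-3 from 10.54 and 10.49 to 0.881 and 0.892 CPM (-3.56 ± 0.21).

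In the Fanconi core 6 of 8 genes fell with shCSN5 in LNCaP, 7 in C4-2, 7 in 22Rv1 and 0 in PC3. Of all genes 17.4%, 16.2%, 21.3% and 6.41% were called lower in these. With CSN5i-3 8 fell in LNCaP, 8 in 22Rv1 and 5 in PC3, against 26.5%, 12.2% and 38.5% of all genes. In PC3 2 rose with CSN5i-3, where 38.5% of all genes were called higher. FANCA, a scaffold of the core, fell with CSN5i-3 in LNCaP (-2.80 ± 0.12), 22Rv1 (-1.99 ± 0.21) and PC3, where it went from 16.2 and 15.6 to 4.32 and 4.19 CPM (-1.90 ± 0.088). FANCM, the translocase that brings the core to DNA, fell by 3.42 ± 0.25 with shCSN5 in LNCaP and by 0.81 ± 0.12 in 22Rv1. FANCG fell by 2.38 ± 0.16 in LNCaP and by 0.42 ± 0.090 in 22Rv1. FANCE was lower in 4 of 7 comparisons and higher with CSN5i-3 in PC3, from 19.2 and 18.8 to 23.1 and 23.8 CPM (0.30 ± 0.058).

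FANCL, the ubiquitin ligase of the core, was among the members with opposite calls. It fell with shCSN5 in C4-2 from 11.1 and 9.30 to 5.45 and 6.02 CPM (-0.83 ± 0.17), and with CSN5i-3 in LNCaP from 4.73 and 4.39 to 3.14 and 2.87 CPM (-0.60 ± 0.14). In PC3 with CSN5i-3 it rose from 7.84 and 8.20 to 11.3 and 11.1 CPM (0.48 ± 0.082). In LNCaP with shCSN5 it stood at 5.85 and 6.71 CPM against 9.90 and 7.35 CPM, not called (0.46 ± 0.21). The LNCaP CSN5i-3 call was lost without CSN5i-3 replicate 2 (adjusted p = 0.0707), and the C4-2 call without C4-2 scramble replicate 1 (0.0557). In 22Rv1 with CSN5i-3 its call was lost with the replicate number as a block (adjusted p = 0.164), with total-count scaling (0.0503) and without 22Rv1 CSN5i-3 replicate 1 (0.0896) or DMSO replicate 1 (0.229).

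FANCD2 and FANCI, the pair that the core modifies, fell in LNCaP, 22Rv1 and PC3 with CSN5i-3. FANCD2 went from 34.6 and 34.4 to 3.71 and 3.39 CPM in LNCaP (-3.28 ± 0.099), from 136 and 117 to 37.4 and 42.6 CPM in 22Rv1 (-1.66 ± 0.16) and from 24.6 and 25.9 to 5.39 and 5.15 CPM in PC3 (-2.25 ± 0.076). With shCSN5 it went from 52.5 and 54.0 to 8.21 and 6.67 CPM in LNCaP (-2.84 ± 0.18), and it also fell in C4-2 (-1.64 ± 0.14) and 22Rv1 (-1.25 ± 0.088). FANCD2 was the only member called lower with shCSN5 in PC3, from 100.1 and 86.2 to 66.0 and 60.7 CPM (-0.56 ± 0.12, adjusted p = 0.035). That call was lost with total-count scaling (adjusted p = 0.0516) and without PC3 shCSN5 replicate 1 (0.111) or 2 (0.203). FANCI, at 135 and 117 CPM in PC3 scramble and 132 and 123 CPM with shCSN5, was not called there (0.02 ± 0.11), and with CSN5i-3 in PC3 it fell from 33.6 and 32.5 to 10.4 and 8.68 CPM (-1.78 ± 0.065).

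All 4 genes of the dissolution complex fell in 6 of the 7 comparisons with clear labels, and in PC3 shCSN5 0 of 4 were called. The share of all genes lower in those 6 was not counted. BLM, the helicase that unwinds recombination joints, went from 8.63 and 9.05 to 0.477 and 0.609 CPM with shCSN5 in LNCaP (-4.01 ± 0.23), from 49.1 and 55.4 to 27.1 and 27.0 CPM in 22Rv1 (-0.95 ± 0.10) and from 6.25 and 6.20 to 0.261 and 0.213 CPM with CSN5i-3 in LNCaP (-4.70 ± 0.20). In the C4-2 pair titled C5i BLM had 3 counts in all against 627 in the pair titled NT, a ratio of 171-fold with a 95% counting interval of 58.2 to 830. RMI2 fell by 3.24 ± 0.16 with CSN5i-3 in LNCaP, and TOP3A, the topoisomerase of the complex, by 0.63 ± 0.078.

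Of the nuclease genes EXO1 and EME1 fell and MUS81 did not. EXO1, which trims broken ends, went from 25.9 and 28.5 to 2.82 and 2.72 CPM with shCSN5 in LNCaP (-3.29 ± 0.18), from 79.6 and 90.5 to 40.9 and 40.6 CPM in 22Rv1 (-1.06 ± 0.094) and from 11.9 and 13.4 to 3.40 and 3.72 CPM with CSN5i-3 in PC3 (-1.83 ± 0.099). EME1, the partner subunit of MUS81, fell from 21.9 and 20.6 to 2.16 and 1.68 CPM with shCSN5 in LNCaP (-3.46 ± 0.20), and from 10.8 and 11.2 to 2.95 and 3.38 CPM with CSN5i-3 in PC3 (-1.81 ± 0.10). MUS81, the catalytic subunit, was called higher in 3 of 7 comparisons and lower in none of them. It rose with CSN5i-3 in LNCaP from 36.1 and 43.1 to 67.4 and 62.2 CPM (0.71 ± 0.10) and with shCSN5 in 22Rv1 from 13.95 and 11.4 to 22.1 and 17.2 CPM (0.63 ± 0.16), a call lost without 22Rv1 shCSN5 replicate 1 (adjusted p = 0.0802). Its libraries overlapped in LNCaP, C4-2 and PC3 with shCSN5. SLX4, a scaffold for nucleases, was called with CSN5i-3 in PC3 (-0.33 ± 0.073) and in the pair titled C5i (-0.42 ± 0.10).

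**Figure D2:**
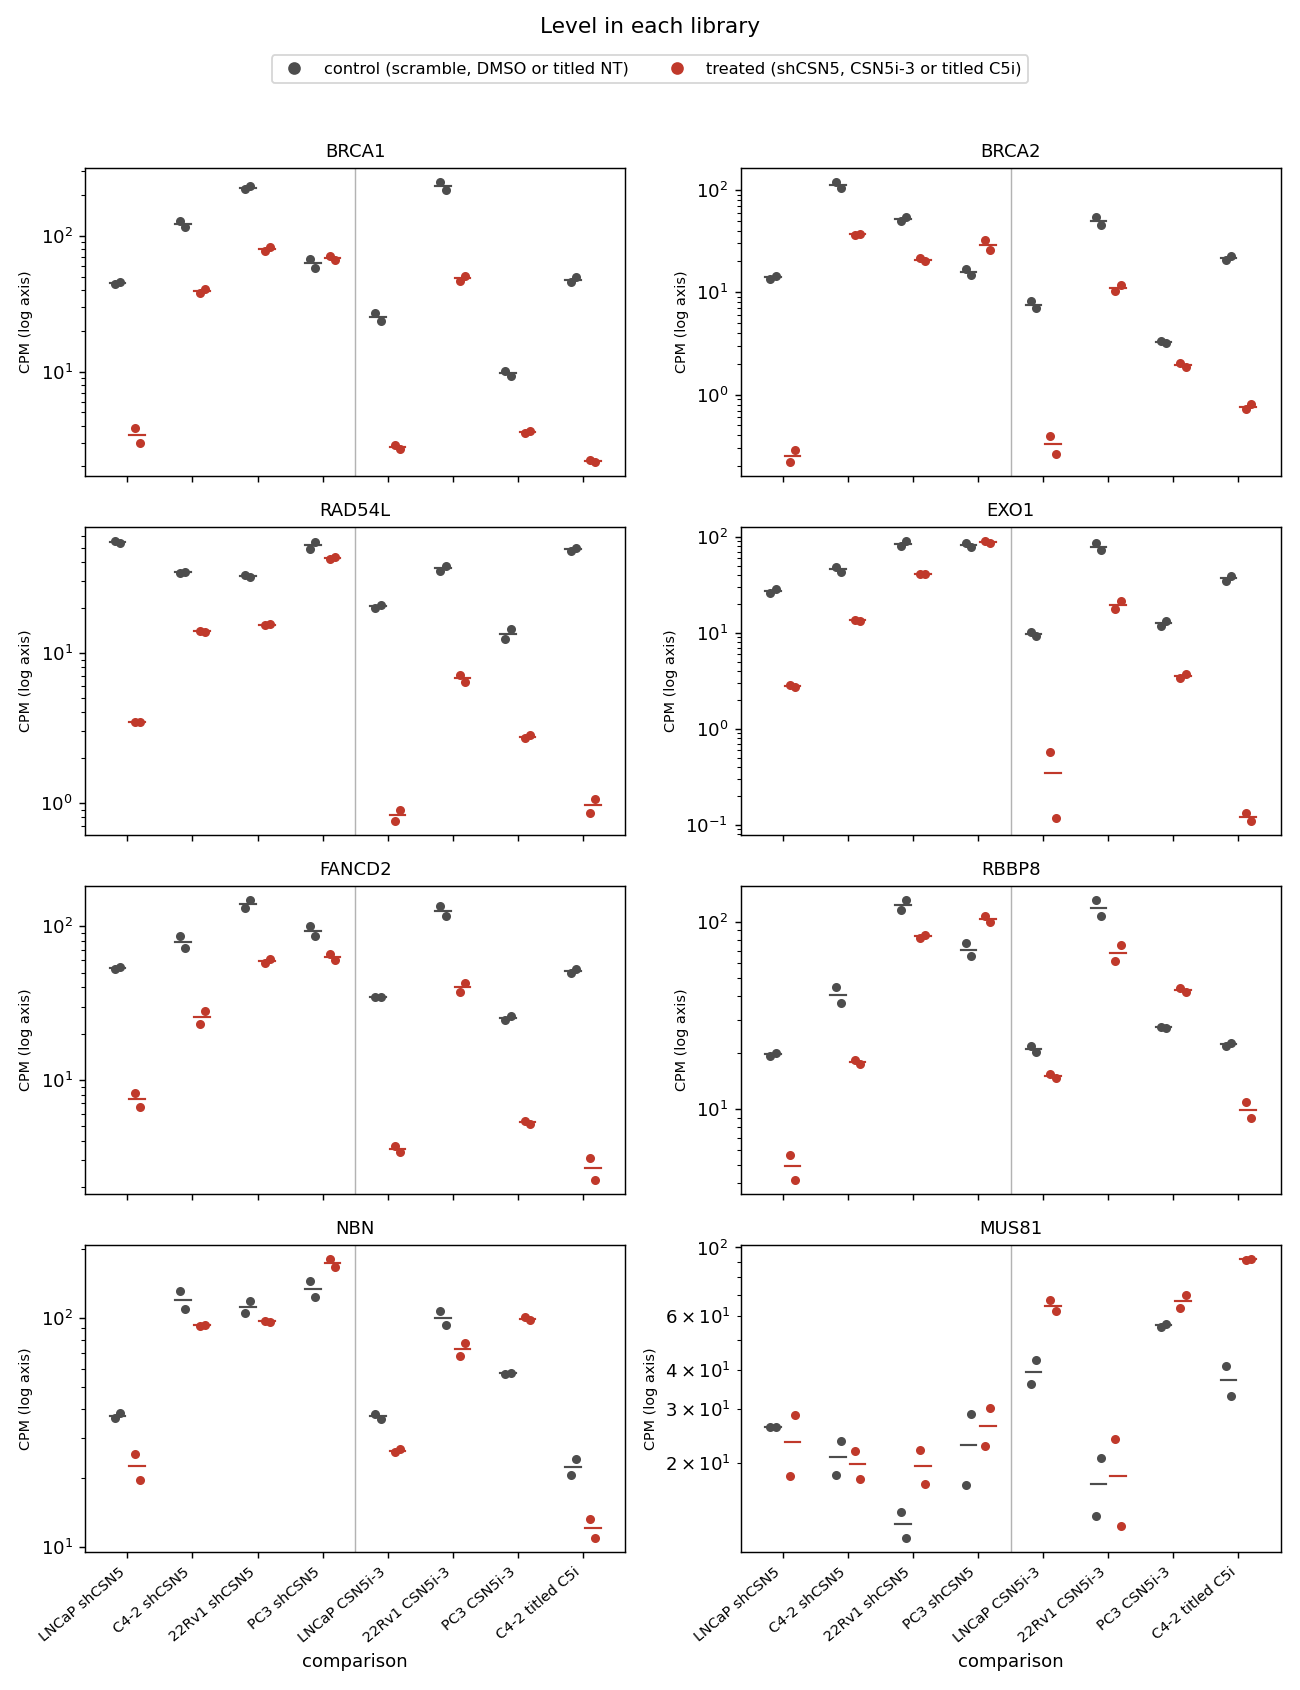
Level in each library, in CPM on a log axis, of 8 members in the 8 comparisons (knockdown left of the grey line, inhibitor right of it). Grey points are the 2 control libraries and red points the 2 treated libraries, with bars at their means. BRCA1, BRCA2, RAD54L, EXO1 and FANCD2 have red points far below grey in LNCaP, while RBBP8 and NBN lie above their controls in PC3 with CSN5i-3.

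The break sensor genes and the upstream kinases moved less and in both directions. MRE11A, RAD50 and NBN form the complex that finds broken ends. With CSN5i-3 in PC3 all 3 rose, by 0.18 to 0.80, where 38.5% of all genes were called higher. NBN went from 57.0 and 57.6 to 101 and 97.9 CPM there (0.80 ± 0.035), and it fell in LNCaP from 38.1 and 36.3 to 25.8 and 26.7 CPM (-0.50 ± 0.078). RAD50 rose with shCSN5 in PC3 from 29 and 25.2 to 49.0 and 43.7 CPM (0.77 ± 0.13, adjusted p = 0.022), a call lost without PC3 shCSN5 replicate 1 (adjusted p = 0.111), and it fell in LNCaP from 33.0 and 33.8 to 20.2 and 18.3 CPM (-0.79 ± 0.15). With CSN5i-3 in LNCaP it was higher, at 48.8 and 53.1 CPM against 41.7 and 38.2 CPM (0.35 ± 0.085), a call lost with total-count scaling (adjusted p = 0.0518) and without LNCaP CSN5i-3 replicate 2 (0.144).

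CHEK1, the kinase that holds the cell cycle at stalled forks, fell in 6 of 7 comparisons, from 42.7 and 45.2 to 6.89 and 6.52 CPM with shCSN5 in LNCaP (-2.71 ± 0.16). CHEK2, which acts below ATM, fell in 5 and rose with CSN5i-3 in PC3 from 14.95 and 15.1 to 18.5 and 19.4 CPM (0.33 ± 0.064). ATR, the kinase that senses single-stranded DNA, rose in LNCaP with shCSN5 from 26.4 and 29.01 to 57.7 and 47.1 CPM (0.92 ± 0.17) and with CSN5i-3 from 24.2 and 20.5 to 33.9 and 34.2 CPM (0.61 ± 0.099). The knockdown call for ATR was lost without LNCaP scramble replicate 1 (adjusted p = 0.219) or 2 (0.140). With shCSN5 in 22Rv1 ATR was called lower (-0.33). ATM, the kinase that senses double-strand breaks, fell with shCSN5 in LNCaP, C4-2 (-0.59 ± 0.14) and 22Rv1 (-0.79 ± 0.088). With CSN5i-3 ATM rose in LNCaP (0.30 ± 0.088) and fell 1.89-fold in 22Rv1.

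PC3 differed from LNCaP in its response to the knockdown at most members. A test of the difference itself called 30 of 39 members higher in PC3 and 1 lower, against 11% and 13.1% of all genes. The difference was 6.56 ± 0.31 for BRCA2 (adjusted p = 1.8e-05), 3.65 ± 0.16 for RAD54L and 3.34 ± 0.17 for EXO1, and -0.84 ± 0.22 for ATR (adjusted p = 0.027), which no longer passed with total-count scaling or without any 1 of 6 of the 8 libraries. Over all 4 lines 36 of 40 members differed in their response, against 38.8% of all genes, and RAD51C, RAD52, MUS81 and SLX4 were not called. Between 22Rv1 and C4-2 7 members were higher in 22Rv1 and 2 lower, against 5.53% and 7.76%. The change with shCSN5 was smaller in 22Rv1 for BLM (difference 0.97 ± 0.17), RAD51AP1 (0.76 ± 0.13) and FANCG (0.74 ± 0.13), and lower in 22Rv1 for BARD1 (-0.89 ± 0.13) and DMC1 (-1.64 ± 0.37). The DMC1 difference was lost without 22Rv1 scramble replicate 2, 22Rv1 shCSN5 replicate 1 or C4-2 shCSN5 replicate 2. The 7 became 3 without C4-2 shCSN5 replicate 2 and 4 without C4-2 shCSN5 replicate 1, 22Rv1 scramble replicate 1 or either 22Rv1 shCSN5 library, and the 2 became 5 without C4-2 scramble replicate 1. In the scramble libraries 22 members stood higher in PC3 than in LNCaP and 9 lower, against 41.6% and 38.2% of all genes, and 16 higher and 9 lower in 22Rv1 than in C4-2, against 35.5% and 29.8%.

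At the same 5 µM CSN5i-3, 14 members had lower effects in LNCaP than in 22Rv1 and 2 higher, against 10% and 5.57% of all genes. The difference was -2.20 ± 0.19 for RAD54L, -2.76 ± 0.26 for BLM and -1.66 ± 0.17 for FANCD2, and 1.18 ± 0.17 for ATM and 0.74 ± 0.19 for ATR. The count of 14 was 8 with the replicate number as a block and 8 without LNCaP CSN5i-3 replicate 2. The ATM difference was lost with that block, and the ATR difference with it, in DESeq2, with total-count scaling and without any 1 of 6 of the 8 libraries.

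Inhibitor and knockdown were compared within each line as a difference of 2 effects, each against its own controls, in libraries that also differ in experiment, which cannot be told apart from the treatment. In PC3 20 members had lower effects with CSN5i-3 than with shCSN5 and 5 higher, against 18.6% and 20.5% of all genes. The difference was -2.30 ± 0.16 for XRCC2, -1.86 ± 0.13 for EME1 and -1.92 ± 0.15 for RAD54L, and RAD52 (0.62 ± 0.13), FANCE (0.65 ± 0.15) and NBN (0.49 ± 0.13) lay on the other side. The count of 5 was 2 with total-count scaling and 0 without PC3 DMSO replicate 1. In LNCaP 6 members lay on each side, against 14.5% lower and 6.83% higher: BARD1 (-1.41 ± 0.20), FANCL (-1.16 ± 0.26) and FANCF (-0.80 ± 0.15) had lower effects with the inhibitor, and CHEK1 (1.25 ± 0.16), RBBP8 (1.41 ± 0.22) and RAD50 (1.05 ± 0.16) had higher ones. Without LNCaP CSN5i-3 replicate 2 the lower count was 1, and the FANCL and FANCF differences were among those lost.

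In 22Rv1 10 members had lower effects with CSN5i-3 and 0 higher, against 1.9% lower and 2.38% higher, with DMC1 (-1.76 ± 0.22), RAD54L (-1.36 ± 0.17) and FANCA (-1.25 ± 0.21) first by p. That count was 0 without any 1 of the 4 knockdown libraries and 0 with the replicate number as a block. The plot of inhibitor against knockdown effects shows PC3 as a column of points near 0 on the knockdown axis.

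**Figure D3:**
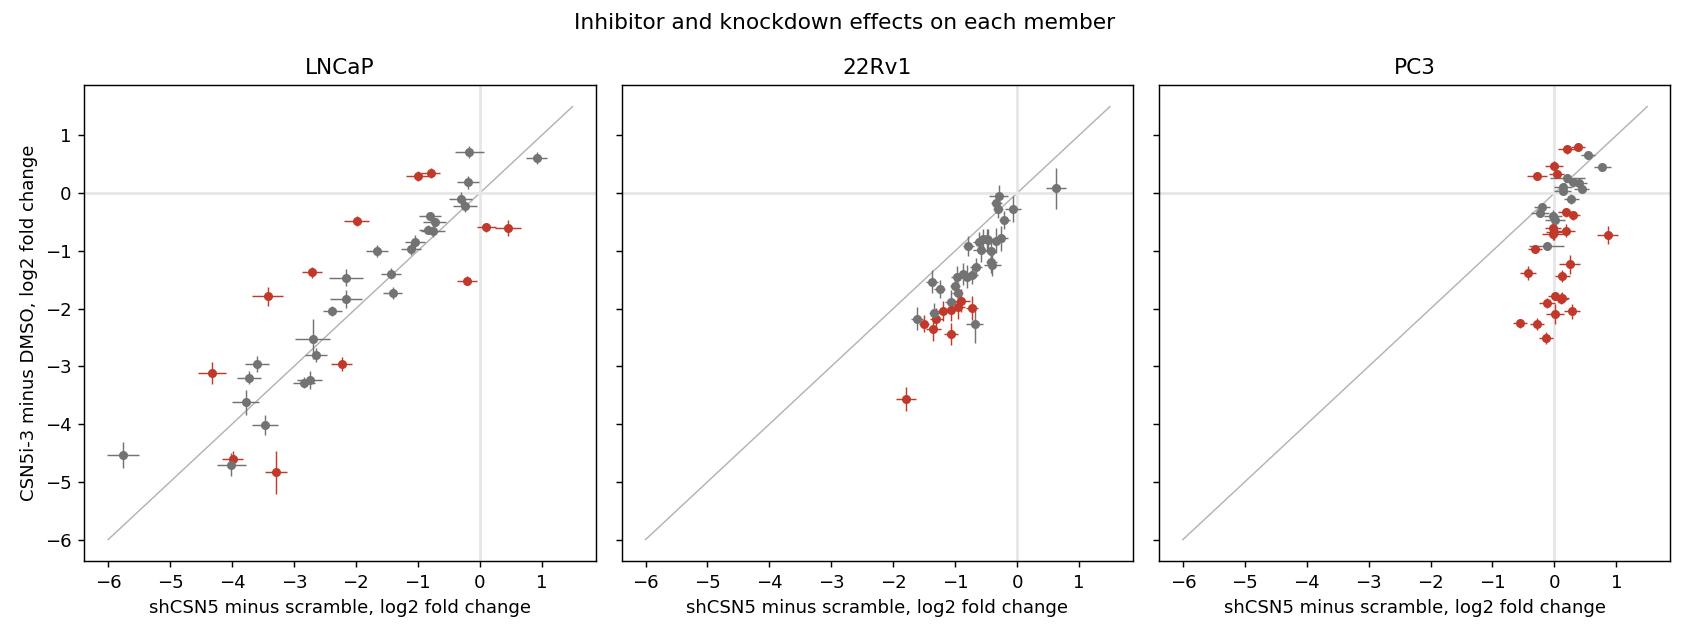
Effect of CSN5i-3 (vertical axis) against the effect of shCSN5 (horizontal axis) on each member tested in both, as log2 fold change with SE bars, in LNCaP, 22Rv1 and PC3. Red members differ between the effects at adjusted p under 0.05, and the diagonal marks equal effects. In LNCaP knockdown effects reach down to -5.76, and in PC3 they stay between -0.56 and 0.86.

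In the C4-2 inhibitor libraries the direction of each change depends on which label is right: the values here follow the titles and take the opposite sign if the descriptions are right. RAD54L stood at 48.0 and 50.3 CPM in the pair titled NT and at 0.859 and 1.06 CPM in the pair titled C5i (-5.68 ± 0.14). EXO1 stood at 34.6 and 39.3 CPM against 0.132 and 0.110 CPM (-8.20 ± 0.21), with 7 counts in the pair titled C5i. FANCI went from 108 and 120.4 to 6.67 and 6.25 CPM (-4.14 ± 0.11), and MUS81 from 41.3 and 33.1 to 91.0 and 92.1 CPM (1.30 ± 0.11).

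With shCSN5 in LNCaP, C4-2 and 22Rv1 the other DNA repair lists had medians closer to 0 than the 40 members, and the replication and mitosis lists had lower medians. With CSN5i-3 in PC3 the median was -0.47 for the members, -0.51 for the other recombination list and -0.44 for base excision repair. There it was 0.37 for mismatch repair, -0.03 for nucleotide excision repair and -0.0006 for end joining. Differences between these lists were not tested. Of 44 other recombination, Fanconi and fork response genes 24 fell and 3 rose with shCSN5 in LNCaP (median -0.77), against the 17.4% and 18.3% of all genes. In C4-2 25 fell and 1 rose, in 22Rv1 26 fell and 6 rose, and in PC3 3 fell and 0 rose. The shares of all genes lower and higher were 16.2% and 15.7% in C4-2, 21.3% and 22.6% in 22Rv1 and 6.41% and 10.3% in PC3. CLSPN, which couples ATR to CHEK1, fell by 3.27 ± 0.18 in LNCaP. Of 18 end joining genes tested 6 fell and 0 rose in LNCaP and 5 fell and 1 rose in C4-2, with medians of -0.44 and -0.27, and PRKDC fell by 0.55 ± 0.09 in C4-2. Of 7 mismatch repair genes 3 fell and 1 rose with shCSN5 in LNCaP (median -0.49). In base excision repair 7 of 17 fell and 3 rose in LNCaP, with NEIL3 at -3.49 ± 0.22 and UNG at -2.36 ± 0.14. Of 16 nucleotide excision repair genes 2 fell and 5 rose there, with ERCC6 higher by 1.13 ± 0.16.

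All 30 replication fork genes fell with shCSN5 in LNCaP (median -2.25), C4-2 and 22Rv1, and 14 of 30 fell in PC3 (median -0.62). All 25 mitosis genes fell in LNCaP (-3.89), C4-2 (-1.64) and 22Rv1 (-1.27), and 17 of 25 in PC3 (-0.50). With CSN5i-3 25 of 25 mitosis genes fell in LNCaP, 22Rv1 and PC3, where 26.5%, 12.2% and 38.5% of all genes were called lower. With shCSN5 the share of all genes called lower was 17.4% in LNCaP, 16.2% in C4-2, 21.3% in 22Rv1 and 6.41% in PC3. Of 15 cell cycle transcription regulators 10 fell and 1 rose with shCSN5 in LNCaP. FOXM1 fell by 3.42 ± 0.13 and MYBL2 by 5.27 ± 0.21 there, and RBL2 rose by 1.04 ± 0.14. In PC3 2 fell and 0 rose with shCSN5, and 7 fell and 7 rose with CSN5i-3. The shares of all genes called higher in these were 18.3%, 10.3% and 38.5%. In bulk RNA fewer cells in replication and less RNA per cell cannot be told apart, and the part of a change in cycling in the members' values was not tested. The plot of list medians sets these side by side.

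**Figure D4:**
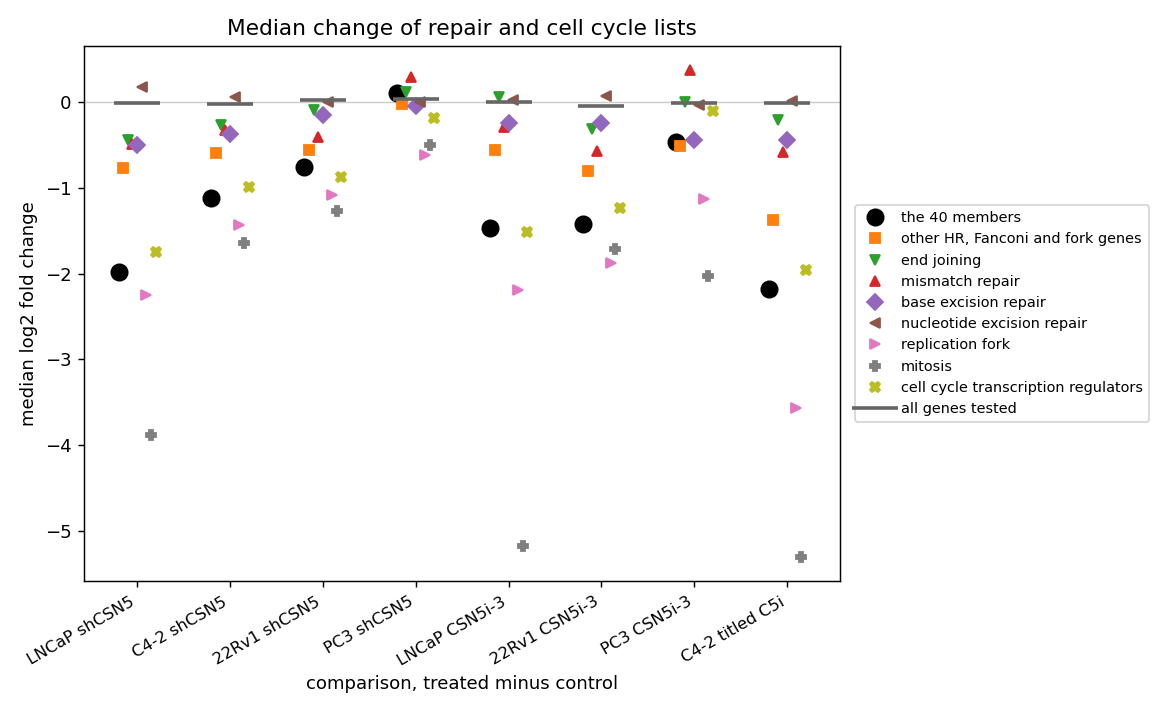
Median log2 fold change (vertical axis) of the 40 members, 8 other lists and all genes tested (grey bars) in the 8 comparisons. The members lie at -1.98 with shCSN5 in LNCaP and at 0.11 in PC3, below the other repair lists and above the mitosis genes in LNCaP.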

How the data were processed

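RNA-seq counts of 32 libraries were used. Per the submitters' processing notes the authors used Partek, whose version is not given; the aligner, genome build and strand setting were not stated in the labels, so reads of overlapping genes on opposite strands cannot be told apart. Counts per gene come from 6 tables deposited by the authors, 1 of which has 1 row with no name (0.0% of its counts), and the LNCaP and C4-2 inhibitor tables list only genes with at least 3 counts in a library. LNCaP and PC3 share a knockdown table, as do 22Rv1 and C4-2, and each line has its own inhibitor table. The members and lists were chosen with earlier results of these data known, and the promoter motifs after the calls were seen.

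Each comparison used its own 4 libraries (2 residual degrees of freedom): edgeR 4.0.16 in R 4.3.3, TMM scaling, the filterByExpr rule (minimum count 10), the quasi-likelihood F test and Benjamini-Hochberg adjustment over all genes at 0.05. SE was taken as |log2 fold change| over the root of F. Differences between effects were contrasts of group means in 8 libraries, or 16 over the 4 lines. A group with 1 to 3 counts is given as a ratio with a 95% exact counting interval, which covers counting error only. The fits were tested on simulated counts with a fixed spread, not that of these libraries. Changes of genes with few counts were often missed. The first criterion for the share of changes found failed for the smaller changes in a difference between effects. It was then limited to genes with more counts, after that result was seen. A member not called in a comparison or in a difference may therefore still have changed.

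Named members were the 8 with the largest mean size of change among those called the same way in at least 5 comparisons, up to 6 with opposite calls, and the 3 lower and 3 higher with the smallest adjusted p in each comparison. Other members were named by role after their values were seen. SLX4 was taken over RAD52, equal in its number of calls, for its smaller mean change, a choice made after the values were seen. Promoters are from RefSeq. Alternatives were total-count scaling, no low-count filter, DESeq2 1.42.0, a shared spread, the replicate number as a block and each library left out.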

Additional observations from a re-analysis of the deposited data

Results flagged for a closer look

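Tests of a difference between effects called 36 members for any difference between the 4 lines with shCSN5, 31 for PC3 minus LNCaP and 9 for 22Rv1 minus C4-2. They called 16 members for LNCaP minus 22Rv1 with CSN5i-3 at 5 µM. For inhibitor minus knockdown they called 12 in LNCaP, 10 in 22Rv1 and 25 in PC3. For inhibitor minus knockdown 14.5% of all genes were called lower in LNCaP, 1.9% in 22Rv1 and 18.6% in PC3. The shares called higher were 6.83%, 2.38% and 20.5% in these lines. In LNCaP 6 of 39 members were lower, a share close to that of all genes. Of all genes 38.8% were called for any difference between the 4 lines. The shares for the other tests are given with their results above. Each value below is a difference of 2 log2 fold changes.

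For shCSN5 in PC3 minus LNCaP the members named were BRCA2 (6.56), RAD54L (3.65), EXO1 (3.34) and ATR (-0.84). For 22Rv1 minus C4-2 they were BLM (0.97), RAD51AP1 (0.76), FANCG (0.74), BARD1 (-0.89) and DMC1 (-1.64). For LNCaP minus 22Rv1 with CSN5i-3 they were ATM (1.18), ATR (0.74), FANCD2 (-1.66), RAD54L (-2.20) and BLM (-2.76).

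For inhibitor minus knockdown in LNCaP they were RBBP8 (1.41), CHEK1 (1.25), RAD50 (1.05), FANCF (-0.80), FANCL (-1.16) and BARD1 (-1.41). In 22Rv1 they were FANCA (-1.25), RAD54L (-1.36) and DMC1 (-1.76). In PC3 they were FANCE (0.65), RAD52 (0.62), NBN (0.49), EME1 (-1.86), RAD54L (-1.92) and XRCC2 (-2.30).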

How the results depend on the processing

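No value of a named member changed direction after a call in any alternative. Of 1540 alternative values for 163 results on named members 1439 kept their call, 86 lost it and 15 gained one, and of 340 alternative counts of members 271 stayed within 1.5 times the first count. With PC3 shCSN5 the count of 1 lower was 0 with total-count scaling, 2 with a shared spread and 7 with the replicate number as a block, and 0 to 2 when 1 library was left out. Its count of 3 higher became 6 when low counts were kept, 11 with the block and 0 to 7 when 1 library was left out. C4-2 shCSN5 had 0 higher, 1 with a shared spread, and 0 to 1 when 1 library was left out.

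LNCaP CSN5i-3 had 4 higher, 2 with total-count scaling, and 2 to 4 when 1 library was left out. LNCaP shCSN5 had 1 higher and 0 to 3 when 1 library was left out, and 22Rv1 shCSN5 had 1 higher and 0 to 1. For PC3 minus LNCaP the 1 lower was 0 with total-count scaling and 0 to 1 when 1 library was left out. For 22Rv1 minus C4-2 the ranges were 3 to 8 higher and 1 to 5 lower. For LNCaP minus 22Rv1 the 14 lower were 8 with the block and 8 to 13 when 1 library was left out, and the 2 higher were 1 with DESeq2, 1 with total-count scaling, 0 with the block and 1 to 4 when 1 library was left out.

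For inhibitor minus knockdown the ranges when 1 library was left out were 1 to 9 lower and 5 to 10 higher in LNCaP, 0 to 15 lower in 22Rv1 and 0 to 6 higher in PC3. In 22Rv1 the 10 lower were 16 with no low-count filter and 0 with the block, and in PC3 the 5 higher were 2 with total-count scaling. For the scramble libraries of PC3 minus LNCaP the 9 lower ranged from 8 to 14. The cause was not tested.

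Replicate numbers mark no shared batch in the labels, and the correlation of same-numbered deviations ran from -0.80 in 22Rv1 CSN5i-3 to 0.70 in PC3 shCSN5. Crossed pairing, chosen after seeing the data, gave 33 lower and 1 higher in C4-2 shCSN5, 33 lower and 4 higher in LNCaP CSN5i-3, 37 lower in 22Rv1 CSN5i-3 and 37 lower for titled C5i. With total-count scaling the median of all genes was -0.20 for titled C5i, -0.10 for LNCaP CSN5i-3, 0.11 for PC3 shCSN5, 0.17 for PC3 minus LNCaP, 0.13 for 22Rv1 minus C4-2, -0.10 for LNCaP minus 22Rv1 and -0.13 for inhibitor minus knockdown in both 22Rv1 and PC3. The share of all calls that were lower went from 38.5% to 26.3% in PC3 shCSN5 (51.3% with DESeq2), from 54.3% to 38.9% for PC3 minus LNCaP and from 58.4% to 42.1% for 22Rv1 minus C4-2. For inhibitor minus knockdown it went from 44.4% to 55.7% in 22Rv1 and from 47.5% to 61.2% in PC3.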
